A study of Mus musculus with 12 samples.

Results

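The FGF receptor genes Fgfr1, Fgfr2, Fgfr3 and Fgfr4 and the ligand gene Fgf4 were followed here through the binding of ESRRB, a nuclear receptor without a known natural ligand that helps sustain pluripotency, in mouse embryonic stem cells. The regions taken were the ESRRB-bound regions whose nearest protein-coding gene (RefSeq, GRCm38.p6, the assembly that mm10 names) was one of these 5 genes, with a centre inside the gene or within 100 kb of it. This gave 48 of 86201 regions, of which Fgfr2 held 24, Fgfr1 9, Fgf4 7, Fgfr4 5 and Fgfr3 3. All 48 passed the filter on low counts. A region was given to a gene by distance alone, which does not show that it acts on that gene.

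Binding was measured by chromatin immunoprecipitation with an ESRRB antibody followed by sequencing (ChIP-seq). The titles name a line NanogKO:Esrrb (44J), called without Nanog here, and a line NanogKO:Esrrb:Nanog (44JN), called with Nanog, and each gave 3 ESRRB ChIP libraries and 3 input libraries. By these titles both lines share a Nanog knockout and Esrrb, and the second has Nanog in addition. NANOG is a homeodomain transcription factor that acts with ESRRB. Both lines carry the same cell line tag, N{delta}:cE:iN, and were cultured untreated in serum medium with LIF. How Nanog was supplied, whether a line is 1 clone, whether libraries came from separate cultures and which of 2 fixations a library had (formaldehyde, with or without a further crosslinker) is not stated by the labels. Any p-value therefore rests on the spread among libraries that may be technical repeats. The counts do not measure NANOG and so do not check the Nanog labels. The columns of the count table carry the letters A, B and C, and values are given in that order.

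Reads in regions numbered 2734338 to 5193707 per library without Nanog and 6689166 to 8382646 with Nanog. Every library with Nanog thus had more of them than any without. The counts do not hold the total reads of a library, so sequencing depth was not compared. The 48 regions held 2068 to 4166 reads per library without Nanog and 4791 to 6104 with Nanog. No pair of libraries of a line agreed within counting noise (chi-square per degree of freedom from 1.33 to 2.53). All 7 stem cell loci examined (Esrrb, Nanog, Klf4, Tfcp2l1, Zfp42, Pou5f1 and Sox2) had a region in the peak list of each line. Because 16052 genes had a region within 100 kb, with a median of 3 per gene, this says little about the cell type. Signal is given as CPM, the read count of a region relative to the reads in all regions of its library on edgeR's standard scale, after TMM scaling. Levels are thus relative to the other regions, and a shift shared by every region is invisible. A region was called higher or lower with Nanog at an adjusted p under 0.05 in edgeR's quasi-likelihood test over 84892 regions. Statements that libraries of the lines overlap or are apart only describe the values. How many of all regions or gene sums were apart was not counted, so being apart is no evidence of a difference.

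FGF ligands bind receptor tyrosine kinases together with heparan sulfate, and the activated receptors signal through adaptors, RAS and the ERK kinases. Fgf4 is the main autocrine FGF of mouse embryonic stem cells, where FGF and ERK signalling is known to favour exit from self-renewal. In the early embryo the epiblast expresses Fgf4, Fgfr1 is expressed throughout the inner cell mass, and Fgfr2 becomes a marker of primitive endoderm, a fate that NANOG opposes.

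An ESRRB region lay over an annotated start of 3 of the genes, and the 250 bases before those starts (RefSeq, GRCm38.p6, + strand, 5′ to 3′) are printed for that reason. They lie at chr13:55152568-55152817 for Fgfr4, chr7:144861136-144861385 for Fgf4 and chr5:33721474-33721723 for Fgfr3.
Fgfr4: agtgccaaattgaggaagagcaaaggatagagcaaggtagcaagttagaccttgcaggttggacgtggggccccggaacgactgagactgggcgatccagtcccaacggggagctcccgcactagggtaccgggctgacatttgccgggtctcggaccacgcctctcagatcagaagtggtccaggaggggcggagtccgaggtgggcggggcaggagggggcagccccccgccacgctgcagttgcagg
Fgf4: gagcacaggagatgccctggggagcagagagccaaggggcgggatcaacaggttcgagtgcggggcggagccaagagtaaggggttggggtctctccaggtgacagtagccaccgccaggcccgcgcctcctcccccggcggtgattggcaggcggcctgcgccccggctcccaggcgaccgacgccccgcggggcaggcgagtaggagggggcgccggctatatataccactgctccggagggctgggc
Fgfr3: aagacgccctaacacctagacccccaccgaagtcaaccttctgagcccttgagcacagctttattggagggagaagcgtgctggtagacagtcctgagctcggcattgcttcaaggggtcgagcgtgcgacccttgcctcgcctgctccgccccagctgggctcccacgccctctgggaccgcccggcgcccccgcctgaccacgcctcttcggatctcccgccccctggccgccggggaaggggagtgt
All 250 bases lay under an ESRRB region at Fgfr4 and Fgf4, and 245 of them at Fgfr3. G and C made up 64% of the bases at Fgfr4, 71.2% at Fgf4 and 66.8% at Fgfr3. No letters are in capitals because the motifs searched for were not found. These were the estrogen-related receptor element TCAAGGTCA and its core AAGGTCA, which lies within it, on both strands. The windows searched ran from 250 bases before to 50 after a start, of which RefSeq gave 5 for 4 of the genes, and 0 of 5 held either motif. Over all 32851 such windows of the genome, 0.423% held the full element and 4.72% the core. Among the 7484 windows that overlapped an ESRRB region the shares were 0.695% and 7.06%, against 0.343% and 4.03% elsewhere. The Fgfr2 start had no region over it, and Fgfr1 had no entry. A second annotated start of Fgfr3, preceded by chr5:33722056-33722305, had no region over it either. Where the factor binds within these regions cannot be read from these letters.

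With Nanog, ESRRB signal was lower at 10 of 24 regions of Fgfr2, 6 of them past its 3′ end, higher at a few regions of Fgfr1 and over the 3′ part of Fgf4, and not called at any region of Fgfr4. Of the 48 regions, 6 were higher (12.5%) and 11 lower (22.9%) with Nanog, and 31 were not called. Over all regions tested, 9.42% were higher and 9.78% lower. The median log2 fold change was -0.06 for the 48 regions and -0.01 over all regions. Of the 11 lower regions 10 belonged to Fgfr2, whose own shares were 41.7% lower and 8.33% higher with a median of -0.57. The 24 regions of the other 4 genes had 16.7% higher, 4.17% lower and a median of 0.12. Regions of 1 gene share their surroundings and are not replicates, and the difference between Fgfr2 and the other genes was not tested. Of the 17 called regions, 3 reached the filter's level in all libraries of 1 line alone, the one where they were high. That level was 10 reads at the median total of reads in regions. They were called without a filter too. Each also lay in the peak list of that line alone, so dropping the filter does not undo the selection. Against 6 higher regions, 3 were called without library C without Nanog and 3 without library A with Nanog.

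**Figure D1:**
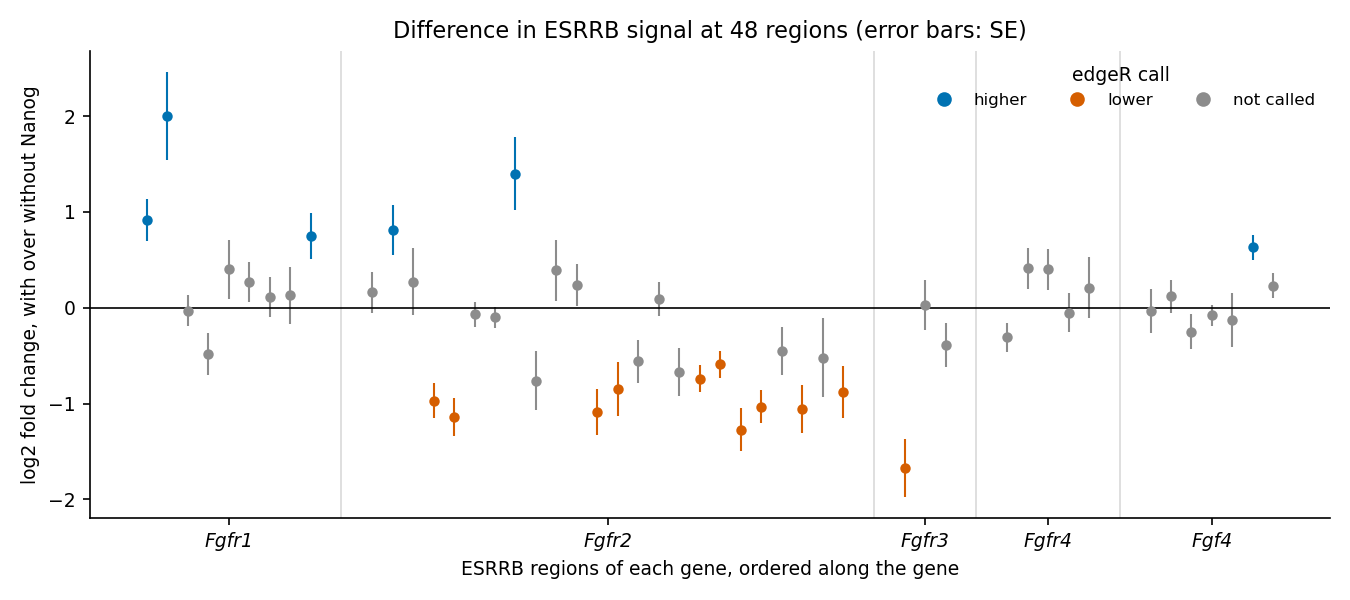
The log2 fold change (with over without Nanog) of each of the 48 regions is plotted with its SE, by gene and ordered along the gene (Fgfr1 by coordinate), coloured by the edgeR call. The 10 lower regions of Fgfr2 span -1.27 to -0.59, while those of Fgfr4 lie between -0.31 and 0.41.

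Summed over all its regions, Fgfr2 had the highest ESRRB signal of the 5 genes in both lines. Its sum ranked 192 of 16052 genes with a region, and that of Fgf4 ranked 688. Fgfr2 held 405, 453 and 410 CPM without Nanog and 309, 311 and 334 CPM with Nanog. Every library with Nanog was thus below every library without it, and the sum fell from 423 ± 26 to 318 ± 14 CPM (mean ± SD over 3 libraries of each line, here and below), a log2 fold change of -0.41 ± 0.06 (SE; edgeR adjusted p = 5.83e-05 over 16018 genes). From the regions inside the gene alone it was -0.245 (edgeR adjusted p = 0.01). Over all gene sums tested, 9.95% were higher and 14.5% lower, with a median of -0.04. Fgfr3 held 19.0, 24.1 and 18.6 CPM without Nanog and 15.2, 14.6 and 13.0 CPM with it, again with no overlap. Its sum fell by 0.53 ± 0.16 on the log2 scale (edgeR adjusted p = 0.0213), and this call was lost without library B without Nanog (log2 fold change -0.39) and without B or C with Nanog (-0.55 and -0.46). Of the 3 Fgfr3 regions only 1 was called, the one before the start, with means of 6.53 CPM without and 2.02 CPM with Nanog. That region lay in the peak list without Nanog alone, so the Fgfr3 sum is not free of that selection.

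The other 3 sums were not called. Fgfr1 held 75.3, 77.4 and 89.4 CPM without Nanog and 95.2, 91.6 and 98.7 CPM with Nanog. These groups did not overlap, with a log2 fold change of 0.23 ± 0.09 (edgeR adjusted p = 0.0772), and the sum was called higher without library C without Nanog (0.33). Fgf4 held 200, 186 and 231 CPM without and 213, 237 and 230 CPM with Nanog. The libraries overlapped, the log2 fold change was 0.13 with a 95% interval of -0.02 to 0.29, and the sum was called higher without library C without Nanog (0.25). Fgfr4 held 71.2, 54.7 and 67.5 CPM without and 66.0, 66.3 and 64.1 CPM with Nanog. Here the interval of the log2 fold change was -0.18 to 0.23. In CPM per kb of region, the order without Nanog was Fgfr2 at 37.1, Fgf4 at 31.5, Fgfr4 at 26.8, Fgfr3 at 21.4 and Fgfr1 at 20. With Nanog it was Fgf4 at 34.7, Fgfr2 at 27.9, Fgfr4 at 27.2, Fgfr1 at 23.5 and Fgfr3 at 14.8. Neighbours in these orders were not tested against each other.

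**Figure D2:**
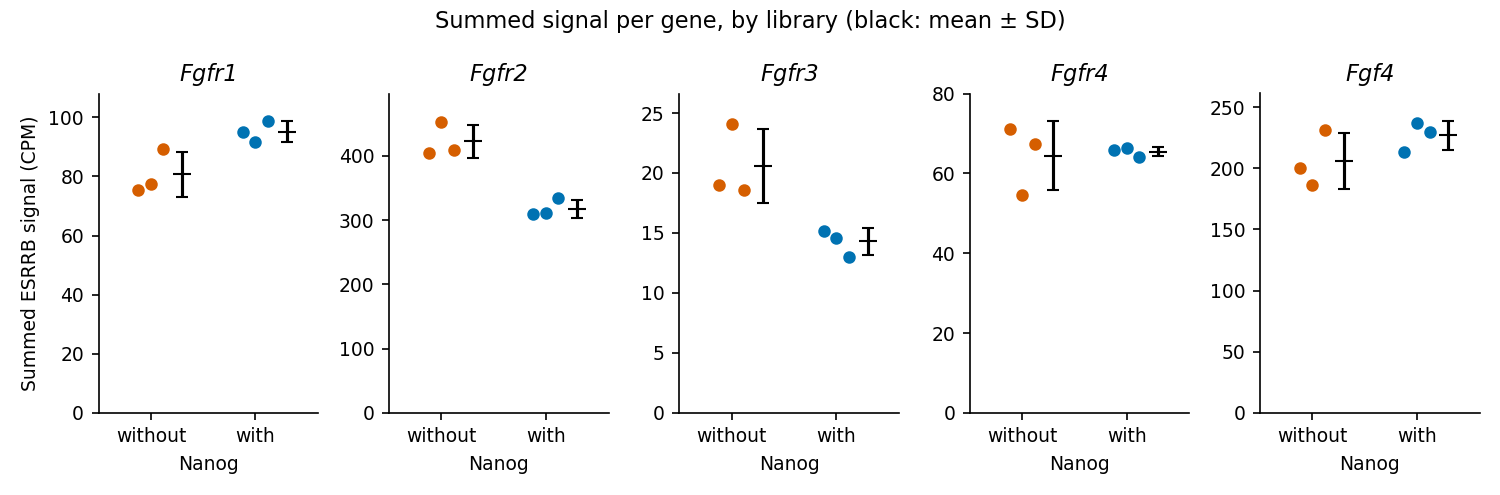
Summed ESRRB signal (CPM, axes from 0) is plotted for each gene and library, with the mean and SD of the 3 libraries per line in black. The libraries of the lines are apart at Fgfr1, which was not called, at Fgfr2 and at Fgfr3, and overlap at Fgfr4 and Fgf4.

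Fgfr2 encodes a receptor with splice forms for epithelial and mesenchymal tissue, and lies at chr7:130162451-130266808 on the minus strand. Its 24 regions comprised 1 upstream of the start, 15 inside the gene and 8 from 13.4 to 80.0 kb past its 3′ end. Of the 8 past the 3′ end, 6 were lower and 0 higher, with a median log2 fold change of -0.81 and a range of -1.27 to -0.45. Of the 15 inside, 4 were lower and 2 higher, with a median of -0.10. Past the 3′ end the regions summed to 152, 181 and 150 CPM without Nanog and to 92.9, 88.8 and 99.8 CPM with Nanog. As a share of the Fgfr2 sum this was 37.6%, 39.9% and 36.6% against 30.1%, 28.6% and 29.9%. The shares did not overlap between the lines, and no test was run on them. The next protein-coding gene for all 24 was Ate1, at 122.2 to 309.0 kb.

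The strongest regions past the 3′ end lay together from 13.4 to 21.0 kb beyond it, and all 4 were lower with Nanog. The region at chr7:130145327-130146352 held 44.7, 57.2 and 43.3 CPM without Nanog and 33.0, 29.4 and 34.1 CPM with Nanog, a log2 fold change of -0.59 ± 0.14 (edgeR adjusted p = 0.00255). At chr7:130148576-130149474, the values of 41.0, 48.8 and 41.6 CPM fell to 23.8, 24.9 and 29.8 CPM (-0.74 ± 0.14). In both, the lowest library without Nanog was above the highest with it. Signal at chr7:130141139-130141733 fell from 26.8, 28.6 and 25.1 to 11.4, 13.4 and 14.4 CPM (-1.03 ± 0.17, edgeR adjusted p = 6.4e-05), the smallest adjusted p of the 48 regions. At chr7:130143149-130143517 it fell from 15.7, 16.3 and 12.0 to 6.85, 4.95 and 6.24 CPM, which is 2.41-fold (-1.27 ± 0.22). The weaker pair of these 4 regions thus had the larger fold decreases.

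Farther out, 2 weaker regions were also lower. At chr7:130113253-130113638, 49.0 kb past the end, signal was 8.95, 13.5 and 8.43 CPM without and 5.25, 4.36 and 5.10 CPM with Nanog (-1.06 ± 0.25). At chr7:130082389-130082604, 80.0 kb past the end, it was 7.83, 5.61 and 5.49 CPM against 3.50, 3.42 and 3.06 CPM (-0.88 ± 0.27, edgeR adjusted p = 0.0222). The lines were apart at both, and the farther call was lost without library A without Nanog and without each library with Nanog in turn (log2 fold change -0.973 to -0.725 over the libraries left out). It was also lost with DESeq2 (adjusted p = 0.0751).

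**Figure D3:**
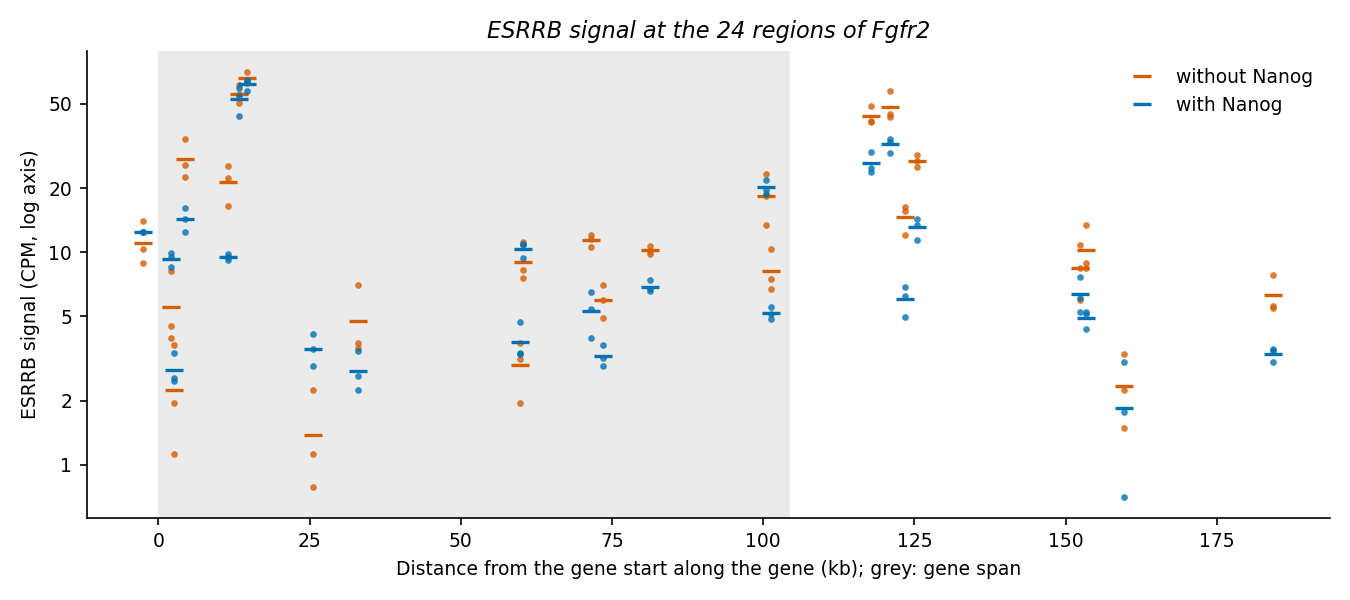
ESRRB signal (CPM, log axis) at each of the 24 Fgfr2 regions is plotted against distance from the gene start along the gene in kb, with points for libraries, bars for the mean of each line and the gene in grey. At the cluster from 13.4 to 21.0 kb past the gene all libraries with Nanog lie below all without it, while the pair of strongest regions inside the gene overlap.

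Inside Fgfr2, regions called lower and regions not called stood side by side near the start. The strongest region of the gene, chr7:130251677-130252689, 14.6 kb from the start, held 63.4, 63.9 and 70.6 CPM without and 62.8, 57.7 and 64.7 CPM with Nanog. The libraries overlapped and the region was not called, with a log2 fold change of -0.10 and a 95% interval of -0.32 to 0.12. Nearer the start, chr7:130254955-130255554 fell from 25.4, 22.4 and 16.5 to 9.48, 9.20 and 9.81 CPM (-1.14 ± 0.20, edgeR adjusted p = 0.000104). At chr7:130262155-130262619, 4.42 kb from the start, signal fell from 22.7, 25.8 and 34.1 to 14.4, 12.5 and 16.1 CPM (-0.97 ± 0.18). Both fell in every library with Nanog below the lowest without it.

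Deeper in the gene, chr7:130195049-130195419 fell from 11.6, 12.1 and 10.6 to 3.94, 5.42 and 6.50 CPM (-1.09 ± 0.24). Its neighbour at chr7:130193086-130193372 held 5.97, 7.01 and 4.90 CPM without and 3.65, 3.18 and 2.93 CPM with Nanog (-0.85 ± 0.28, edgeR adjusted p = 0.0291). The call at this neighbour was lost on leaving out any 1 library but C without Nanog, with log2 fold changes from -1 to -0.695, with DESeq2 (adjusted p = 0.0999) and after thinning to equal totals (adjusted p = 0.183). Of Fgfr2 regions 2 were called higher, both weak. At chr7:130241167-130241376 signal went from 1.12, 2.24 and 0.784 to 3.50, 4.13 and 2.93 CPM (1.4 ± 0.38), and this region passed the count filter through the libraries with Nanog alone. Near the start, chr7:130264533-130265028 went from 8.20, 3.93 and 4.51 to 9.48, 8.49 and 9.94 CPM (0.81 ± 0.26, edgeR adjusted p = 0.0275). Each of these calls was lost on leaving out some libraries (B with Nanog or C without it for the former, and A or C with Nanog or B or C without it for the latter). The latter was also lost with DESeq2 (adjusted p = 0.0741) and after thinning to equal totals (adjusted p = 0.0927), and the former was not tested in either. Without C without Nanog, 0 of 24 Fgfr2 regions were called higher. The 11 other Fgfr2 regions had fold changes from -0.76 to 0.39 on the log2 scale and none was called.

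Fgf4, at chr7:144861386-144865245 on the plus strand, encodes the ligand. An enhancer bound by OCT4 and SOX2 is known downstream of its coding sequence, and whether a region here covers it was not examined. The only region inside the gene, chr7:144863642-144864978, centred 0.94 kb before its 3′ end, was higher with Nanog. It held 35.4, 31.1 and 39.0 CPM without and 55.6, 52.1 and 57.1 CPM with Nanog, a rise of 1.55-fold (log2 fold change 0.63 ± 0.13, edgeR adjusted p = 0.000719). No library overlapped. This call held with each library left out in turn, with log2 fold changes from 0.56 to 0.74.

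The strongest Fgf4 region, chr7:144856736-144858587, 3.7 kb before the start, held 72.3, 60.3 and 74.3 CPM without and 64.7, 64.5 and 66.3 CPM with Nanog. The libraries overlapped, and the 95% interval of its log2 fold change was -0.31 to 0.14. The region over the Fgf4 start, chr7:144861114-144861448, was weak, with 6.71, 3.65 and 5.49 CPM without and 5.10, 5.07 and 4.08 CPM with Nanog. It overlapped too, with an interval of -0.68 to 0.41. The other 4 Fgf4 regions were not called. The next gene for all 7 was Fgf3, at 9.7 to 24.2 kb.

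**Figure D4:**
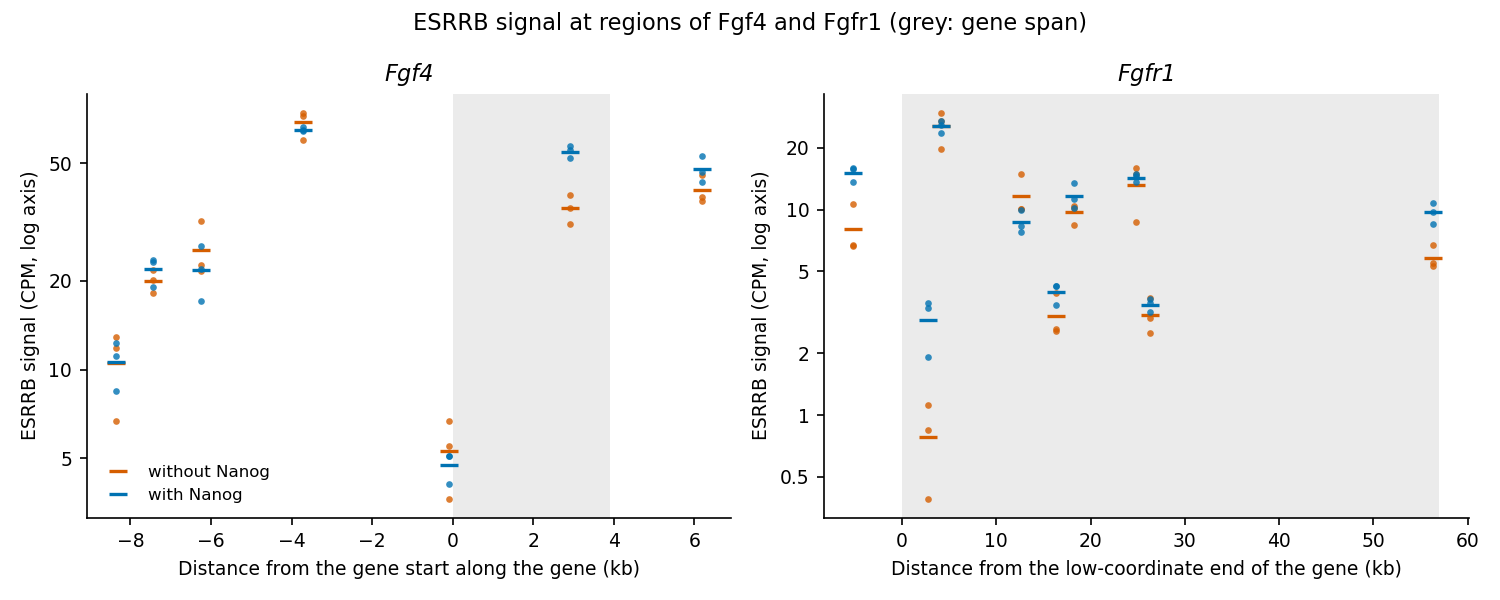
ESRRB signal (CPM, log axis) at the regions of Fgf4, by distance from its start along the gene in kb, and of Fgfr1, by distance from its low-coordinate end, is plotted with points for libraries, bars for the mean of each line and the gene in grey. The region inside Fgf4 lies higher in all libraries with Nanog, and at Fgfr1 the lines are apart at the 3 higher regions and at 1 region that was not called.

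Fgfr1 encodes the receptor through which FGF4 is chiefly read in these cells, and lies at chr8:25518759-25575718. Of its 9 regions 3 were higher and 0 lower. At chr8:25513349-25513825, 5.2 kb outside the low-coordinate end, signal rose from 6.71, 10.7 and 6.67 to 13.7, 15.7 and 15.9 CPM (log2 fold change 0.92 ± 0.22, edgeR adjusted p = 0.00319). At chr8:25574845-25575382, 0.60 kb inside the other end, it rose from 6.71, 5.33 and 5.49 to 9.77, 8.49 and 10.8 CPM (0.75 ± 0.24, edgeR adjusted p = 0.0276). Neither overlapped between the lines. The latter call was lost without library C without Nanog and without A or C with Nanog, with log2 fold changes from 0.66 to 0.85, with DESeq2 (adjusted p = 0.0777) and after thinning to equal totals (adjusted p = 0.0601). The next gene for the 9 regions was Letm2, which lay 3.4 kb from this end region.

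The region chr8:25521453-25521656 inside Fgfr1 had the largest fitted fold change of the 48 regions and few reads. It held 1.12, 0.841 and 0.392 CPM without Nanog, from 3, 3 and 2 reads, and 3.50, 3.3 and 1.91 CPM with Nanog. The log2 fold change of 2.00 had a 95% interval of 1.09 to 2.91 (edgeR adjusted p = 0.00251). No library without Nanog reached the filter's level, so this region was tested only because it was high with Nanog. Close by, the strongest Fgfr1 region, chr8:25522577-25523179, held 19.8, 26.9 and 29.6 CPM without and 25.8, 23.6 and 26.9 CPM with Nanog. That region overlapped and was not called, with an interval of -0.34 to 0.28. The other 5 regions of Fgfr1 were not called, with log2 fold changes from -0.48 to 0.40.

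Fgfr3 and Fgfr4 encode receptors better known from cartilage and liver. Fgfr3 lies at chr5:33721724-33737068 on the plus strand. Its region at chr5:33720336-33720535, 1.3 kb before the start, held 5.59, 8.69 and 5.29 CPM without and 2.04, 2.48 and 1.53 CPM with Nanog. The groups were apart and the decrease of 3.17-fold was the largest of the 48 regions (log2 fold change -1.67 ± 0.30, edgeR adjusted p = 0.00021). This region reached the filter's level in all libraries without Nanog and in 2 of 3 with it. Over the start itself, chr5:33721479-33721907 held 4.85, 7.57 and 5.10 CPM without and 6.71, 5.78 and 5.48 CPM with Nanog. That region was not called, with a 95% interval of -0.48 to 0.55. The strongest region of Fgfr3, inside the gene at chr5:33731968-33732302 held 8.58, 7.85 and 8.24 CPM without and 6.42, 6.37 and 5.99 CPM with Nanog. It did not overlap and was not called (log2 fold change -0.39 ± 0.23, edgeR adjusted p = 0.261).

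Fgfr4 lies at chr13:55152818-55168759 on the plus strand, and none of its 5 regions was called. The strongest, chr13:55152338-55152967, covers the start printed above and held 26.1, 25.0 and 26.9 CPM without and 21.4, 21.7 and 19.7 CPM with Nanog. The lines were apart, and the log2 fold change of -0.31 ± 0.15 was not called (edgeR adjusted p = 0.161). At the 3′ end of the gene, chr13:55167115-55167635 held 10.8, 8.69 and 9.81 CPM without and 12.1, 14.4 and 12.2 CPM with Nanog (log2 fold change 0.41 ± 0.21). Next to it, chr13:55167787-55168391 held 10.1, 7.85 and 11.2 CPM against 13.4, 13.2 and 12.2 CPM (0.40 ± 0.21). These regions were apart between the lines in the other direction from the start, and their adjusted p values were 0.170 and 0.184 by edgeR. Past the gene, chr13:55181786-55182255 held 21.6, 10.9 and 17.3 CPM against 16.2, 14.5 and 16.9 CPM, and chr13:55182426-55182604 held 2.61, 2.24 and 2.35 CPM against 2.92, 2.48 and 2.93 CPM. Both overlapped.

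The deposited peak lists, 1 per line, placed these calls. Of the 48 regions, 30 overlapped a peak of both lists, 17 of the list with Nanog alone and 1 of the list without Nanog alone. Of all 84892 regions tested, 32615 lay in both lists, 51603 in the list with Nanog alone and 674 in that without Nanog alone. In both lists were 10 of the 11 lower regions, all of Fgfr2, and 1 higher region, that inside Fgf4. The 17 regions in the list with Nanog alone held the other 5 higher calls and 0 lower ones. The region before the Fgfr3 start was the one in the list without Nanog alone, of whose 674 regions tested 79.5% were lower. Over all regions tested, 7.4% of those in both lists were higher and 20.8% lower, against 10.8% higher and 1.92% lower where the peak was called with Nanog alone. For Fgfr2 the 17 regions in both lists were 58.8% lower. The lists come from libraries with unequal totals of reads in regions. They were called on the same reads as the counts, so they are no separate evidence.

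The genes whose summed signal was most alike across the 6 libraries were found by Euclidean distance between centred log2 CPM sums over 5521 genes (5522 for Fgfr3) with at least 5 regions tested. For Fgfr2 these were App, the amyloid precursor gene, at a distance of 0.073, Gadl1 at 0.081 and Slc35f1 at 0.088. Their sums were called lower too, with log2 fold changes of -0.4, -0.41 and -0.43, which follows from choosing them by likeness. Of all gene sums tested 14.5% were lower, so a lower sum is not particular to Fgfr2. For Fgf4 they were Ssbp2 at 0.091, Anxa6, an annexin gene, at 0.096 and Gprc5b at 0.098. For Fgfr1 they were Hivep1, a zinc finger gene, at 0.075, Map3k13, a kinase gene, at 0.081 and Rec114 at 0.082. For Fgfr3, with a sum of few reads, the nearest were farther off, with Gm15319 at 0.14 and Ldc1 and Aqp8, an aquaporin gene, both at 0.15. For Fgfr4 they were Sgpp2 at 0.045, A430005L14Rik at 0.068 and Itga9, an integrin gene, at 0.078.

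Other genes of the pathway were taken from lists and are described by counts only. Of 62 regions at 15 of 21 other FGF ligand genes, 9 were higher (14.5%) and 8 lower (12.9%), with a median log2 fold change of -0.15. Of the 15 gene sums, 4 were higher and 2 lower, with a median of 0.08. Among the ligands the summed signal of Fgf23, a hormone-like FGF, rose from 34.4 ± 5.1 to 53.1 ± 2.7 CPM, and that of Fgf9 from 8.38 ± 0.88 to 13.4 ± 2.6 CPM. Fgf10, a ligand of FGFR2 in budding organs, fell from 147 ± 21 to 110 ± 2.9 CPM, and Fgf12, an intracellular FGF, from 74.0 ± 8.7 to 54.5 ± 6.0 CPM.

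Co-receptors and heparan sulfate genes had 29 higher (15.3%) and 19 lower (10.1%) of 189 regions, with a median of -0.04. Summed signal rose at Ext1, which polymerises heparan sulfate, from 149 ± 16 to 212 ± 9.0 CPM, and at Gpc6, a glypican, from 167 ± 7.8 to 225 ± 12 CPM. It fell at Sdc4, a syndecan, from 186 ± 18 to 133 ± 14 CPM, and at Klb, the co-receptor beta-klotho, from 112 ± 11 to 85.8 ± 6.5 CPM. The list thus held sums that went either way.

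Adaptors and kinases of the RAS and ERK cascade had 15 higher (9.87%) and 11 lower (7.24%) of 152 regions, with a median of 0. Braf, a RAS-activated kinase gene, fell from 20.6 ± 2.8 to 14.6 ± 1.3 CPM, with 2 of 4 regions lower. The ERK-activating kinase genes Map2k1 and Map2k2 fell from 258 ± 11 to 208 ± 15 CPM and from 73.5 ± 11 to 53.5 ± 5.3 CPM. Sums of this list went either way, with 3 higher and 3 lower of 22 and a median log2 fold change of 0.11. Feedback inhibitors and targets of ERK had 26 higher (11.3%) and 17 lower (7.36%) of 231 regions, with a median of 0.05. Elk1, an ETS factor phosphorylated by ERK, had 1 region and rose from 15.0 ± 2.7 to 30.4 ± 2.7 CPM. Spred1, an inhibitor of RAS signalling, rose from 102 ± 0.74 to 130 ± 6.7 CPM, and the ETS factor gene Etv4 fell from 143 ± 13 to 121 ± 4.2 CPM. Etv1 held 145 ± 12 and 125 ± 10 CPM and was not called (edgeR adjusted p = 0.0855).

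Other receptor tyrosine kinases, the wider family of the FGF receptors, had 44 higher (9.73%) and 50 lower (11.1%) of 452 regions, with a median of -0.07. Their sums were higher for 5 and lower for 8 of 49 genes, near the 9.95% and 14.5% of all gene sums. Erbb4, a neuregulin receptor, fell from 140 ± 6.8 to 105 ± 5.3 CPM, with 4 of 10 regions lower and 1 higher. Pdgfra, a PDGF receptor of primitive endoderm, fell from 216 ± 15 to 171 ± 15 CPM, and Ntrk2, a neurotrophin receptor, from 316 ± 31 to 261 ± 13 CPM, with 7 of 17 regions lower and 0 higher. Alk rose from 258 ± 21 to 331 ± 24 CPM, with 10 of 32 regions higher. Single genes of these lists thus had shares of lower regions like that of Fgfr2 (10 of 24).

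**Figure D5:**
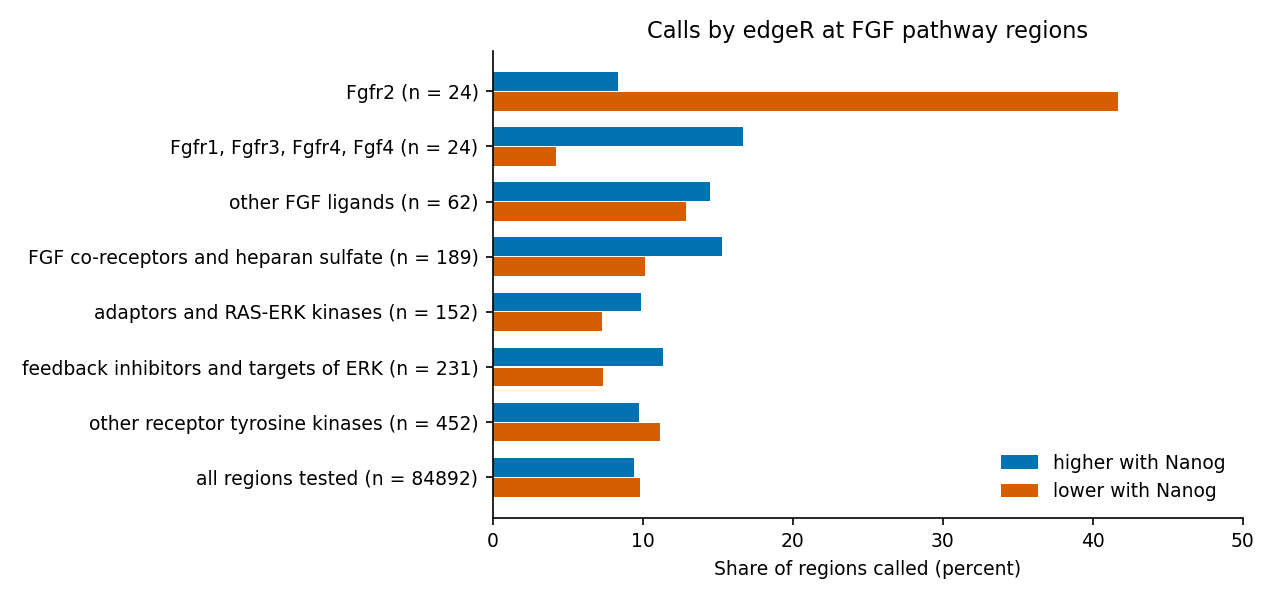
Bars from 0 give the percentage of regions called higher or lower with Nanog by edgeR for Fgfr2, for the other 4 genes, for each pathway list and for all regions tested, with n the number of regions. Fgfr2 has 41.7% lower regions, against 9.78% of all regions.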

How the data were processed

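ChIP-seq libraries of 2 lines were compared, 3 ESRRB ChIP libraries per line, and the input libraries were not used here. Per the submitters' processing notes, the tools were MACS2, Bowtie2, deepTools, bedtools 2.26.0, SAMtools 1.4.1 and bcl2fastq 2.19.1, on the build mm10. How each was set, the peak cutoff and the counter were not given in the sources used here. In the deposited table are unnormalised whole-number counts of reads per region of the merged peak lists.

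Columns were matched to a line and not to a sample, because no label gives their letters. Regions were filtered by filterByExpr (1309 of 86201 removed), scaled by TMM and tested with edgeR 4.0.16 in R 4.3.3 (glmQLFit, glmQLFTest, line alone), with Benjamini-Hochberg adjustment over all regions and a threshold of 0.05. The SE is the absolute log2 fold change divided by the root of F, and an interval is 1.96 SE to either side, a normal approximation that can be narrower than the test allows. Counts of all regions within 100 kb were summed per gene and tested likewise over 16018 genes. Tested on simulated data for this comparison with 200 changed regions, it called 1 of 67 changed 1.5-fold, 34 of 67 changed 2-fold, 65 of 66 changed 4-fold and 3 of 84545 unchanged. Far more regions were called in the data (9.42% higher and 9.78% lower), which makes the adjusted threshold less strict there. The simulated shares therefore do not give the power in the data. A peak overlap was 1 bp or more.

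Named were all called regions, the strongest of each gene (by log-CPM with a prior count of 2), those centred within 1 kb of a gene end, all regions of genes with at most 6, the 3 genes most like each member, and per list up to 4 genes by adjusted p of the sum. One gene that this rule names is not reported here. Centred log2 sums used a pseudocount of 0.5. Members and lists were chosen with earlier results of these data known. Exons, introns and region sequences were not analysed here. Alternatives tried were DESeq2 1.42.0, limma-voom (limma 3.58.1), different scalings and filters, thinning to equal totals, a block by letter, other distances and overlaps, sums without the strongest region, and leaving out each library.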

Additional observations from a re-analysis of the deposited data

How the results depend on the processing

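The lower call of the Fgfr2 sum held in every alternative run on the sums, with log2 fold changes of -0.449 to -0.349 when 1 library was left out and its smallest size, -0.245 (adjusted p = 0.01), from regions centred inside the gene. Of 17 named calls, 12 held in every alternative that tested them, 5 were lost in at least 1 and 0 changed sign. Among the 11 uncalled regions that are named, 0 passed the threshold in any. Against 6 higher regions, DESeq2, a mean count of at least 50 and thinning to equal totals each gave 2, and leaving out 1 library gave 3 to 6. Against 11 lower regions, a mean count of at least 50 gave 5, regions centred inside a gene gave 4, and leaving out 1 library gave 9 to 12. For Fgfr2, DESeq2, the mean count of at least 50 and thinning gave 0 higher regions, and leaving out 1 library gave 0 to 2. Its lower regions numbered 5 at a mean count of at least 50, 4 inside the gene and 8 to 11 with 1 library left out. The stricter filter tested 25 of the 48 regions and 10 of the 24 at Fgfr2. It left 10 of the 17 called regions untested, and those it tested kept their call. DESeq2 gave an adjusted p for 42 and 21, with 2 of the called regions untested, and thinning had the same numbers.

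The Fgfr1 sum passed the threshold at a log2 fold change of 0.268 by column totals, 0.272 with the loess offset, 0.329 without its strongest region and 0.232 with the replicate block by column letter, with 0.194 to 0.328 over the libraries left out. The Fgfr3 sum ran from -0.602 to -0.387 over the libraries left out and lost its call inside the gene at -0.39, where 1 region remains. Summed inside the gene, Fgfr4 was called at 0.407 and Fgf4 at 0.631, from 2 regions and 1 region. Leaving out 1 library gave -0.065 to 0.1 for Fgfr4 and 0.072 to 0.246 for Fgf4. Some regions not called changed sign. Over the libraries left out, the strongest of Fgfr1 ran from -0.148 to 0.116, that over the Fgfr3 start from -0.08 to 0.263, the stronger past Fgfr4 from -0.252 to 0.15 and that over the Fgf4 start from -0.314 to 0.027. The strongest of Fgfr1 was at 0.013 by column totals, those of Fgfr2 and Fgf4 at 0.002 and 0.028 with the loess offset, and the stronger past Fgfr4 at 0.09 after thinning. Beyond the fewer regions, reads or libraries named, the cause was not tested.

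The replicate block gave 6 higher and 12 lower regions, 11 of them at Fgfr2. The letters were not taken as pairs, since no label explains them. Deviations of same-letter libraries correlated at 0.086, 0.23 and 0.13, against -0.16 to 0.046 for unlike letters, so each library correlated best with its own letter. Of the 48 regions, 31 overlapped the list without Nanog, or 23 when at least 1/2 of the region had to be covered, and 47 the list with Nanog under both rules. Of all 86201 regions, 33310 overlapped the list without Nanog and 85506 that with Nanog by 1 bp or more, so nearly every region lay in the latter. Reads in regions were fewer without Nanog, and weak regions there rest on few reads.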
